A study of Mus musculus with 9 samples.

Results

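The type I interferon response genes described here are 39 genes taken from a fixed list of names, out of 26388 genes listed in the count files. The list holds the interferon-stimulated genes and their regulators that are commonly read as the signature of interferon alpha and beta; the rule uses names, not values, but the list was made with earlier results of these data known. The samples were livers of 9 male C57BL/6 mice aged 8 weeks, each injected intravenously, and single-cell transcripts were captured in droplets by Drop-seq. PBS, the vehicle, was given to mice 1, 4 and 7. AAVrh.10Null, an adeno-associated virus (AAV) vector of serotype rh.10 labelled Null, was given to mice 2, 5 and 8. AAVrh.10mCherry, a vector of the same serotype named for the red fluorescent protein mCherry, was given to mice 3, 6 and 9. The labels used here give neither the dose nor the time between injection and collection. No untouched mouse was sampled, so all groups share the injection.

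Type I interferons are secreted proteins that bind the receptor pair Ifnar1 and Ifnar2 on almost every cell. The kinases Jak1 and Tyk2 then act on Stat2, which joins Irf9 in a complex that binds the interferon-stimulated response element in front of the response genes. In liver, cytosolic and endosomal nucleic acid sensors can start this response, and AAV vectors carry DNA into hepatocytes. The products of the response genes restrict viral RNA and DNA, tag proteins with Isg15, or feed back on the signal itself.

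The core of the response element was searched as GAAANNGAAA on both strands. RefSeq promoters of the assembly GRCm38.p6, from 250 bases before to 50 bases after the gene start, were matched for 28 of the 39 genes. That motif or its reverse complement TTTCNNTTTC was found in 12 of the 28, a share of 42.9%, against 3.45% of 26997 promoters of the same length outside the list and 16 of 56 for other genes of the pathway. Matches can overlap each other and are a description of these letters. Promoters of 5 genes are shown: Stat2, Bst2 and Isg15 had among the smallest p-values between groups, and Ifit3 and Samhd1 differed between cell classes. Capitals mark the motif, which 4 of these 5 hold. The Ifit2, Oasl2, Irf7 and Adar promoters, of genes that also stand out below, hold none in this window. The Stat2 promoter lies at chr10:128270248-128270547 on the plus strand and holds 1 match, 222 bases before the RefSeq start. The Stat2 position given below is from GENCODE M21 and starts elsewhere, at 128270559. The Bst2 promoter lies at chr8:71537423-71537722 on the minus strand and holds 2 overlapping matches. The Isg15 promoter lies at chr4:156200769-156201068 on the minus strand and holds 3 overlapping matches. The Ifit3 promoter lies at chr19:34583279-34583578 on the plus strand and holds 2 separate matches. The Samhd1 promoter lies at chr2:157135047-157135346 on the minus strand and holds 0 matches.
Stat2: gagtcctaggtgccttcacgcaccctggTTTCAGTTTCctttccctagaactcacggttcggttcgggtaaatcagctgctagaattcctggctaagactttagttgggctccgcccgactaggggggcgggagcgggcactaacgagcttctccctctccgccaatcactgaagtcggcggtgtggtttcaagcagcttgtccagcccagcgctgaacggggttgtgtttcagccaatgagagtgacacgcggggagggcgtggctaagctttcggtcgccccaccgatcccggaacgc
Bst2: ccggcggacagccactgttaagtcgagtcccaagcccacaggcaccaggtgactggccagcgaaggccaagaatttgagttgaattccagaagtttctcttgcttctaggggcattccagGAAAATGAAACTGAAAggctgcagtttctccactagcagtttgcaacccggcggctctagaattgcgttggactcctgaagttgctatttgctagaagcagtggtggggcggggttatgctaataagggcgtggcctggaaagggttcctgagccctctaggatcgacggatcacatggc
Isg15: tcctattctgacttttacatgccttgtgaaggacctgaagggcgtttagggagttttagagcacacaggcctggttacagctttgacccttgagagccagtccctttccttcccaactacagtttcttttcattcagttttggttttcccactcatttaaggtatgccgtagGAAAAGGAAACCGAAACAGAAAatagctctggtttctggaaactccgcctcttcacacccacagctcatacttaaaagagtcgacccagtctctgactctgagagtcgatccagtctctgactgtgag
Ifit3: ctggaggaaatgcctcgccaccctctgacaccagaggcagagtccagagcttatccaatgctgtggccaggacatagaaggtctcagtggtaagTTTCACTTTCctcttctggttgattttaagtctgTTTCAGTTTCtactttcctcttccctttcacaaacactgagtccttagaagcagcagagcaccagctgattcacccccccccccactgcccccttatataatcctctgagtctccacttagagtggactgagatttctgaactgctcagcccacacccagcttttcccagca
Samhd1: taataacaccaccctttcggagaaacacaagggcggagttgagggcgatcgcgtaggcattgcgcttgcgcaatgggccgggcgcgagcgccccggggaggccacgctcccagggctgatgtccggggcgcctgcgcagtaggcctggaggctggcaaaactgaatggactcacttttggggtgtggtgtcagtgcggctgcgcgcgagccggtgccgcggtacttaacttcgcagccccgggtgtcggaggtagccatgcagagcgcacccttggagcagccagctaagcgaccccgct

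Levels are given in CPM, the unique molecular identifiers (UMIs) of a gene scaled to a total of 1000000 UMIs per liver, summed over barcodes with at least 200 genes. The labels give each sample as a mouse of its own, so the p-values measure the spread between mice. A UMI counts 1 captured transcript end and is not divided by transcript length. Of 48000 deposited barcodes 44898 were kept, with 4234127 to 11220147 UMIs per mouse except mouse 7 (PBS), which kept 550 of its 3600 barcodes and 291338 UMIs. In mouse 7, the floor of 3 UMIs against which a count of 0 was set is at 10.3 CPM. Mitochondrial genes held 3.43% (mouse 4) to 17.8% (mouse 6) of UMIs. Malat1, a nuclear RNA, ran from 2769 to 23010 CPM, with mice 2, 7 and 8 above the rest. Barcodes ending in an undetermined base numbered 7 and 20 in mice 2 and 8, 174 in mouse 7 and 1056 to 1735 in the others. Mice 2 and 8 are AAVrh.10Null livers, and among the other 7 livers that group is mouse 5 alone, so this difference and AAVrh.10Null cannot be told apart. Pairs of libraries shared 0 to 6 barcodes. The mCherry feature was at 1797 to 7979 CPM in the 3 AAVrh.10mCherry livers and at 0 to 24.3 in the other livers. Hepatocyte markers held 90468 to 120697 CPM in every liver.

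All 39 genes were listed, 35 of them in all 9 files, and 37 reached the 30 UMIs set as the minimum for a test. Oas2 and Oas3, which make the oligoadenylate that activates RNase L, had 22 and 12 UMIs over all livers and were not tested. The summed level of the 39 genes was 751, 974 and 841 CPM in the PBS mice (mice 1, 4 and 7). It was 859, 808 and 716 in the AAVrh.10Null mice (mice 2, 5 and 8) and 1008, 626 and 801 in the AAVrh.10mCherry mice (mice 3, 6 and 9). The groups overlapped fully, and the highest and the lowest liver were both in the AAVrh.10mCherry group. Among the 37 tested genes mouse 3 was the highest liver for 12 and mouse 6 the lowest for 15, while mouse 7 was the lowest for 12. Values by mouse are given below in that order within each group.

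No interferon response gene changed between the groups at an adjusted p under 0.05 in edgeR's quasi-likelihood test, which was fitted on 13400 genes with the 3 groups together. That held for AAVrh.10Null against PBS, AAVrh.10mCherry against PBS, AAVrh.10mCherry against AAVrh.10Null and the mean of both AAV groups against PBS. Of all genes tested, the shares called in those contrasts were 0.00746%, 0%, 0.00746% and 0%. At an unadjusted p under 0.05, edgeR gave 5 of 37 members for AAVrh.10Null against PBS, 3 higher and 2 lower, where 12.4% of all genes passed, 9.47% higher and 2.89% lower. It gave 5 members for AAVrh.10mCherry against PBS, 4 higher and 1 lower, where 8.98% of all genes passed, 8.04% higher and 0.94% lower. The AAVrh.10mCherry and AAVrh.10Null groups differed at that level for 2 members, both higher with mCherry, where 7.6% of all genes passed, 5.25% higher and 2.36% lower. For the mean of both AAV groups 6 members passed, 4 higher and 2 lower, where 11.1% of all genes did, 9.28% higher and 1.83% lower. With whole livers, fewer cells of a type and less RNA per cell cannot be told apart.

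**Figure D1:**
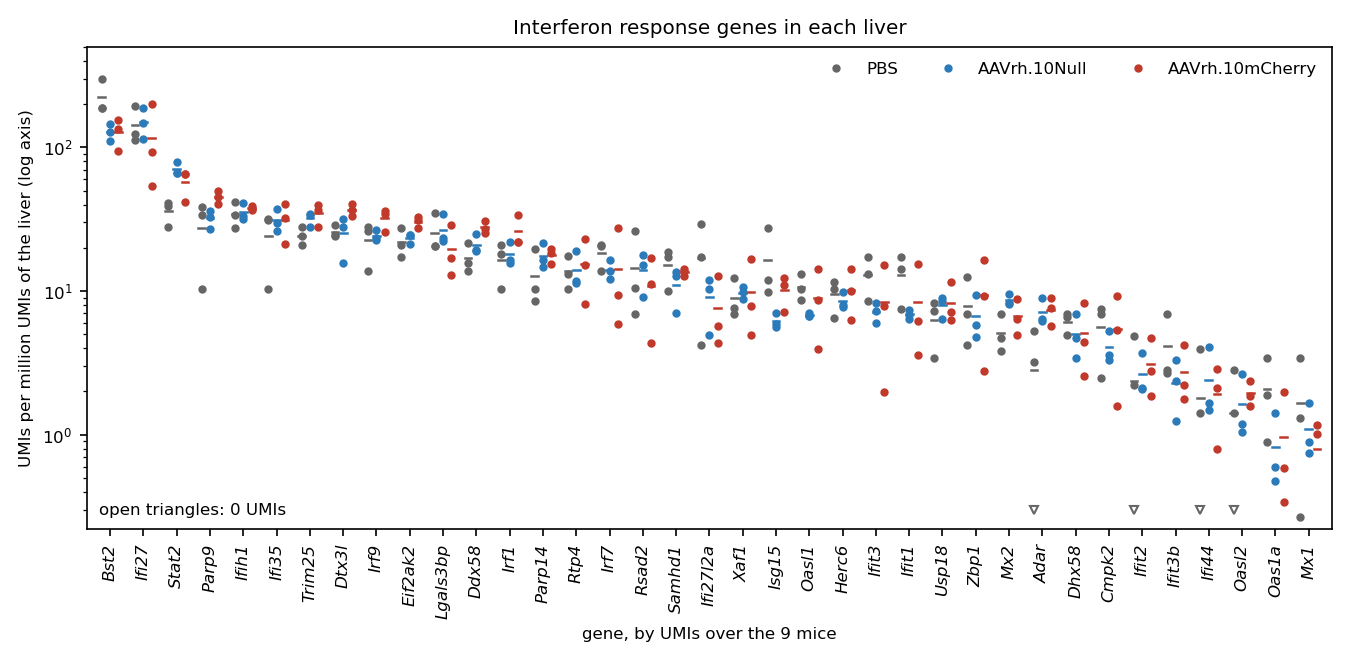
Levels of the 37 tested members in CPM of each liver on a log axis; each point is 1 mouse, coloured by group, each bar a group mean, and open triangles mark 0 UMIs. Stat2 is lowest in the PBS mice (28.0 to 41.2 CPM) and Bst2 is highest in them (187 to 299 CPM), while for most other genes the groups overlap.

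The members' median change on the log2 scale was -0.07 for AAVrh.10Null minus PBS, beside 0.02 for all genes. It was 0.03 for AAVrh.10mCherry minus PBS, beside 0.16 for all genes, and 0.13 for AAVrh.10mCherry minus AAVrh.10Null, beside 0.11. TMM scaling moved the median of all genes in the AAVrh.10mCherry contrasts to 0.02 and 0.01, a shift of over 0.1, and the members' medians to -0.09 and 0.03. Leaving out 1 mouse at a time moved the members' median from -0.38 to 0.23 for AAVrh.10Null minus PBS (without mice 1 and 4) and from -0.27 to 0.42 for AAVrh.10mCherry minus PBS (without mice 1 and 4). For AAVrh.10Null minus PBS the members' median under TMM was -0.11, beside -0.02 for all genes. By sign alone 14 members were higher and 23 lower in AAVrh.10Null than in PBS. In AAVrh.10mCherry 21 were higher and 16 lower than in PBS. The shares of all genes by sign are not given here, so these counts have no background beside them.

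**Figure D2:**
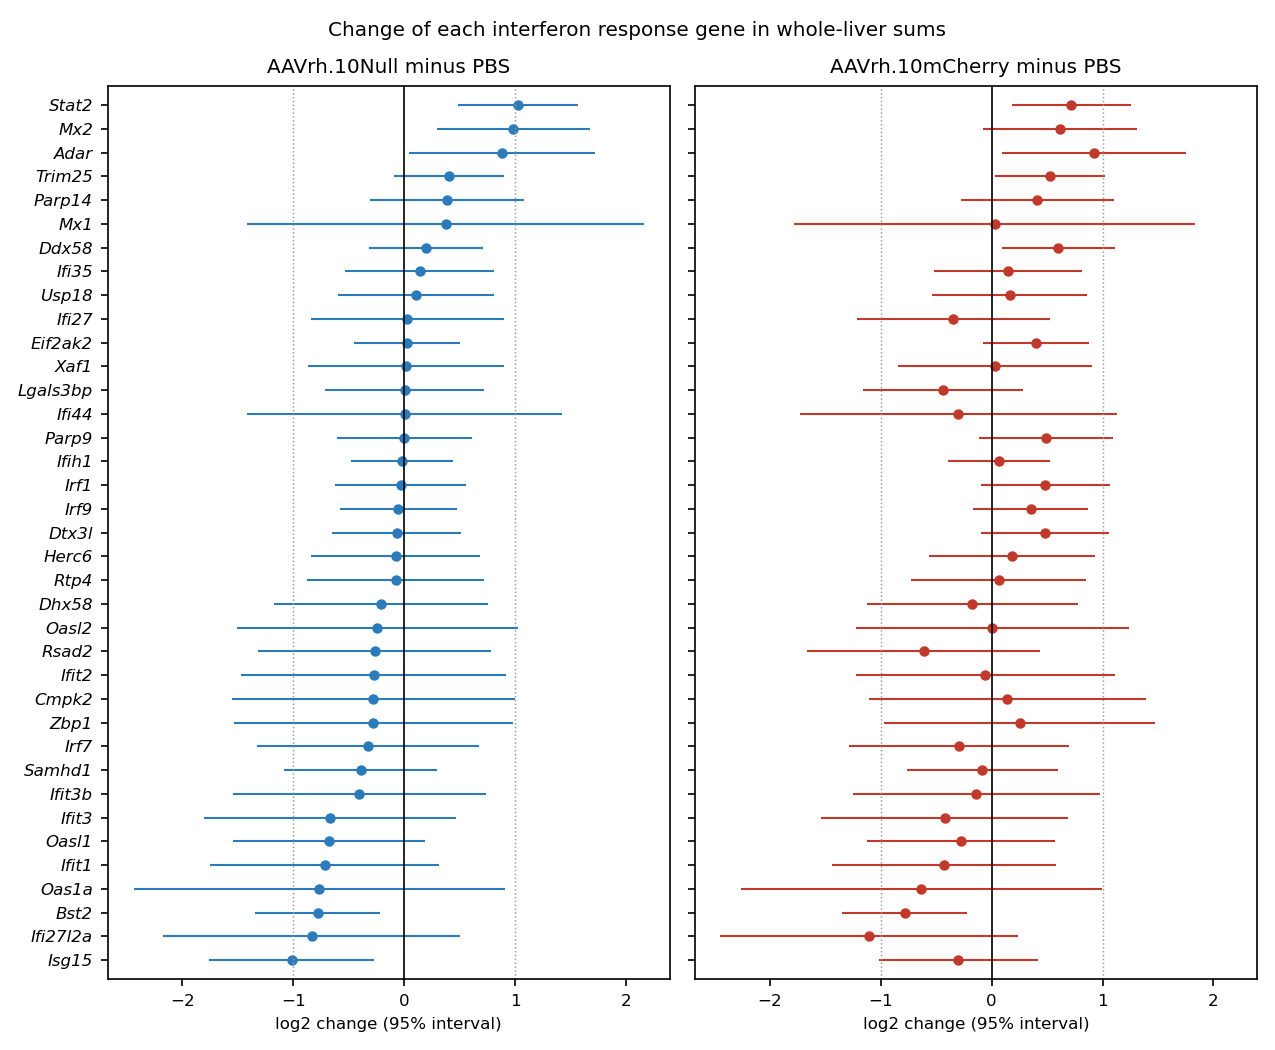
Log2 change of each of the 37 tested members between groups, with the 95% interval of edgeR's fit over 9 mice. Dotted lines mark 2-fold. The intervals of most members include 0; Stat2 lies above it (1.03 for AAVrh.10Null minus PBS) and Bst2 below it (-0.78) in both comparisons with PBS.

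The signalling genes come first. Stat2, a subunit of the interferon-activated transcription complex, lies at chromosome 10, 128270559 to 128292849. It was at 28.0, 39.2 and 41.2 CPM in the PBS mice, at 79.7, 66.4 and 66.3 in the AAVrh.10Null mice, and at 41.5, 65.1 and 64.9 in the AAVrh.10mCherry mice. Every AAV liver lay above every PBS liver, although mouse 3 (41.5) was just above the highest PBS mouse. That was mouse 7, with 12 Stat2 UMIs. The log2 difference was 1.03 for AAVrh.10Null minus PBS (SE 0.25, 95% interval 0.49 to 1.56), with an edgeR adjusted p of 0.188. For AAVrh.10mCherry minus PBS it was 0.72 (SE 0.25), with an edgeR adjusted p of 0.541, and between the AAV groups it was -0.31 (SE 0.23). Stat2 had the smallest p of the members for AAVrh.10Null minus PBS, 0.00134 unadjusted in edgeR. DESeq2 gave an adjusted p of 0.0440 for the same contrast and edgeR without a low-count filter 0.0324. Over its alternatives the adjusted p ranged from 0.0324 to 0.999. With barcodes of at least 500 genes the difference was 1.70, and without mice 2 and 8, where mouse 5 alone stood for AAVrh.10Null and was assumed to vary like the other groups, it was 0.93.

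Irf9, the DNA-binding subunit of that complex, was at 26.1, 27.9 and 13.7 CPM with PBS, at 23.5, 26.7 and 22.7 with AAVrh.10Null and at 34.2, 25.7 and 36.1 with AAVrh.10mCherry. Its groups overlapped, and the log2 difference was -0.05 (SE 0.24) for AAVrh.10Null and 0.35 (SE 0.24) for AAVrh.10mCherry against PBS. Irf1, a transcription factor that interferon gamma also induces, was at 21, 18.0 and 10.3 with PBS, at 15.7, 16.5 and 21.8 with AAVrh.10Null and at 22.1, 33.8 and 22 with AAVrh.10mCherry. The AAVrh.10mCherry mice were all above the other livers, mice 3 and 9 by a narrow margin. The log2 difference of Irf1 from AAVrh.10Null was 0.52 (SE 0.25), with an edgeR adjusted p of 0.649. Irf7, which amplifies interferon alpha production, spanned 13.7 to 21 with PBS, 12 to 16.4 with AAVrh.10Null and 5.94 to 27.7 with AAVrh.10mCherry. Usp18, which removes Isg15 and dampens the receptor, spanned 3.43 to 11.5 over all livers. Irf9 overlaps Rnf31 and Irf7 overlaps Phrf1, so their counts are uncertain where the counting did not separate them.

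The sensors of viral RNA are Ifih1 (MDA5), Ddx58 (RIG-I) and their relative Dhx58, with Trim25, which activates RIG-I, and Zbp1, which senses Z-form nucleic acid. Ifih1 was at 41.6, 33.8 and 27.5 CPM with PBS, at 41.3, 31.9 and 33.4 with AAVrh.10Null and at 39.1, 37.2 and 36.9 with AAVrh.10mCherry. All groups overlapped, and Ifih1 had the narrowest interval of the members for AAVrh.10Null minus PBS, -0.48 to 0.44 around -0.02. Ddx58 was at 21.7, 15.8 and 13.7 with PBS, at 19.1, 24.8 and 19.2 with AAVrh.10Null and at 30.9, 26.9 and 25.5 with AAVrh.10mCherry. Its AAVrh.10mCherry mice were above all others, with a log2 difference from PBS of 0.60 (SE 0.24) and an edgeR adjusted p of 0.541.

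Trim25 was at 20.9, 27.9 and 24.0 CPM with PBS, at 34.0, 34.2 and 28.1 with AAVrh.10Null and at 28.0, 36.8 and 39.8 with AAVrh.10mCherry. All AAV livers were above all PBS livers by a narrow margin, and the log2 difference was 0.40 (SE 0.23) for AAVrh.10Null and 0.53 (SE 0.23) for AAVrh.10mCherry. Its edgeR adjusted p values were 0.493 and 0.547. Dhx58 and Zbp1 were lower, at 2.57 to 8.26 and 2.77 to 16.4 CPM over the livers, and their groups overlapped.

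Isg15, the ubiquitin-like modifier, lies at chromosome 4, 156199424 to 156200818. It was at 9.80, 12 and 27.5 CPM with PBS, at 7.06, 5.90 and 5.65 with AAVrh.10Null and at 11.0, 7.12 and 12.2 with AAVrh.10mCherry. The AAVrh.10Null livers were below all other livers, and the highest value, of mouse 7, rests on the library with the fewest UMIs. The log2 difference was -1.01 for AAVrh.10Null minus PBS (SE 0.34, 95% interval -1.76 to -0.27), with an edgeR adjusted p of 0.277. Leaving out 1 mouse at a time gave -1.30 to -0.80. AAVrh.10mCherry minus AAVrh.10Null was 0.71 (SE 0.33), with an edgeR adjusted p of 0.648. Herc6, the ligase that attaches Isg15 in mice, overlapped between groups at 6.33 to 14.3 CPM.

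The Ifit genes, whose products bind viral RNA, were low in every liver. Ifit1 was at 7.49, 14.3 and 17.2 CPM with PBS, at 7.41, 6.85 and 6.39 with AAVrh.10Null and at 15.5, 3.56 and 6.17 with AAVrh.10mCherry. Ifit3 was at 8.47, 13.1 and 17.2 with PBS, at 7.23, 8.27 and 5.94 with AAVrh.10Null and at 15.2, 1.98 and 7.92 with AAVrh.10mCherry. For both genes the AAVrh.10Null livers were below the PBS livers by a narrow margin, while mice 3 and 6 of the AAVrh.10mCherry group lay at opposite ends. Neither passed the test, with log2 differences of -0.72 (SE 0.48) and -0.67 (SE 0.52) for AAVrh.10Null minus PBS. Ifit2 and Ifit3b spanned 0 to 4.88 and 1.23 to 6.86 CPM. Ifit3 shared 4.24% of the 100-base windows in its last 500 bases with Ifit3b.

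Among the oligoadenylate synthetase genes, Oasl1 was at 13.1, 8.63 and 10.3 CPM with PBS, at 6.70, 7.09 and 6.69 with AAVrh.10Null and at 14.3, 3.96 and 8.62 with AAVrh.10mCherry. The AAVrh.10Null livers were below the PBS livers, with a log2 difference of -0.68 (SE 0.40) and an edgeR adjusted p of 0.505. Oasl2 and Oas1a were at 0 to 2.81 and 0.337 to 3.43 CPM, and Oas1a shares 40.9% of those end windows with its copy Oas1g. Mx2, a dynamin-like antiviral gene annotated as a polymorphic pseudogene in GENCODE M21, lies at chromosome 16, 97535308 to 97560900. It was at 3.83, 4.69 and 6.86 with PBS, at 8.11, 8.27 and 9.51 with AAVrh.10Null and at 8.77, 4.95 and 6.41 with AAVrh.10mCherry. Its AAVrh.10Null livers were all above the PBS livers, by 0.98 (SE 0.32) on the log2 scale with an edgeR adjusted p of 0.264. The highest PBS value, of mouse 7, rests on 2 UMIs and lies under that library's floor of 10.3. AAVrh.10mCherry minus AAVrh.10Null was -0.36 (SE 0.28) for Mx2. Mx1 had 45 UMIs in all and the widest interval of the members for AAVrh.10Null minus PBS, -1.42 to 2.16.

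Bst2 (tetherin), which holds budding virions at the cell surface, had the highest mean level of the list and lies at chromosome 8, 71534255 to 71537456. It was at 188, 187 and 299 CPM with PBS, at 128, 111 and 145 with AAVrh.10Null and at 155, 94.4 and 134 with AAVrh.10mCherry. Each PBS liver was above each AAV liver. The group levels were 224 ± 64.4, 128 ± 16.9 and 128 ± 30.6 (SD, n = 3 each). The log2 difference was -0.78 (SE 0.26, 95% interval -1.34 to -0.21) for AAVrh.10Null and -0.78 (SE 0.26) for AAVrh.10mCherry against PBS, with edgeR adjusted p values of 0.271 and 0.541. Without mouse 7, the highest liver, each was -0.55. Mouse 7 also had the highest level of stellate cell markers, 621 CPM against 62.9 to 212 elsewhere, and the second highest of endothelial markers, 501 CPM. Their part in the Bst2 value was not tested.

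Adar, which overlaps Chrnb2 (16 UMIs) and encodes the double-stranded RNA editing enzyme, at chromosome 3, 89715022 to 89753446, was at 3.21, 5.25 and 0 CPM with PBS, at 9.0, 6.14 and 6.39 with AAVrh.10Null and at 5.73, 8.90 and 7.57 with AAVrh.10mCherry. All AAV livers were above all PBS livers, and the 0 of mouse 7 lies under that library's floor of 10.3. The log2 difference was 0.88 (SE 0.39) and 0.92 (SE 0.38), with edgeR adjusted p values of 0.384 and 0.542. Eif2ak2 (PKR), the kinase that halts translation, was at 20.8, 27.4 and 17.2 with PBS, at 24.5, 24.6 and 21.4 with AAVrh.10Null and at 31.4, 27.3 and 32.5 with AAVrh.10mCherry. Its AAVrh.10mCherry livers were above the AAVrh.10Null livers but overlapped PBS, and the log2 difference from AAVrh.10Null was 0.37 (SE 0.21). Rsad2 (viperin) spanned 4.35 to 26.3 CPM, and Cmpk2, which lies near it on chromosome 12, spanned 1.58 to 9.27. Samhd1, which depletes deoxynucleotides, spanned 6.98 to 18.6 CPM. For each of these genes the groups overlapped.

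Parp9 and Dtx3l, which form a ubiquitin ligase complex, overlap on opposite strands, and the strand of counting is not given in the sources used here. Parp9 was at 34.0, 38.3 and 10.3 CPM with PBS, at 36.0, 32.8 and 27.2 with AAVrh.10Null and at 45.2, 40.2 and 49.5 with AAVrh.10mCherry. Dtx3l was at 24.6, 28.9 and 24.0, at 31.8, 28.1 and 15.6, and at 36.6, 33.4 and 40.1 in the same order. Both were highest in the 3 AAVrh.10mCherry mice. The log2 differences from AAVrh.10Null were 0.49 (SE 0.26) for Parp9 and 0.55 (SE 0.25) for Dtx3l, the second with an edgeR adjusted p of 0.648. Parp14 spanned 8.47 to 21.5 CPM.

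Ifi27, a mitochondrial interferon-induced protein, was at 125, 195 and 113 CPM with PBS, at 147, 188 and 114 with AAVrh.10Null and at 199, 54.0 and 93.4 with AAVrh.10mCherry. The groups overlapped. Ifi35 was at 31.0, 31.7 and 10.3 with PBS, at 37.4, 29.8 and 26.2 with AAVrh.10Null and at 40.3, 21.2 and 32.3 with AAVrh.10mCherry, again with overlap. Lgals3bp, a secreted glycoprotein, was at 20.6, 34.9 and 20.6, at 34.2, 22.2 and 23.3, and at 28.7, 12.9 and 17. It overlapped as well, with a log2 difference of -0.44 (SE 0.33) for AAVrh.10mCherry minus PBS and -0.45 (SE 0.31) between the AAV groups. Xaf1, Rtp4 and Ifi44 spanned 4.95 to 16.7, 8.11 to 22.9 and 0 to 4.06 CPM. Rtp4 had 785 UMIs and shares exon bases with Gm45338 (456 UMIs) on the same strand, so its values are uncertain.

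Ifi27l2a, at chromosome 12, 103442167 to 103443680, was at 4.19, 29.4 and 17.2 CPM with PBS, at 12, 4.96 and 10.3 with AAVrh.10Null and at 12.8, 4.35 and 5.71 with AAVrh.10mCherry. Mouse 4 was the highest, and the groups overlapped. The log2 difference was -1.10 (SE 0.62) for AAVrh.10mCherry minus PBS and turned to 0.42 without mouse 4. Mouse 4 also had the highest summed level of 13 macrophage markers, 314 CPM against 59.0 to 194 in the other livers. Its T/NK markers were at 110 CPM, against 8.65 to 117 elsewhere. Their part in the Ifi27l2a level was not tested. Summed plasmacytoid dendritic markers were at 0 to 1.5 and neutrophil markers at 0 to 5.06 CPM in all livers.

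Counting the members whose groups do not overlap gave 4 higher (Mx2, Stat2, Trim25 and Adar) and 5 lower (Isg15, Ifit1, Ifit3, Oasl1 and Bst2) in AAVrh.10Null than in PBS. Of all genes tested 12.3% were higher and 6.5% lower without overlap in that contrast. For AAVrh.10mCherry against PBS 7 were higher (Stat2, Irf1, Parp9, Dtx3l, Ddx58, Trim25 and Adar) and 1, Bst2, was lower, beside 13.9% and 2.4% of all genes. For AAVrh.10mCherry against AAVrh.10Null 6 were higher (Isg15, Irf1, Parp9, Dtx3l, Ddx58 and Eif2ak2) and 1, Stat2, was lower, beside 11.2% and 4.49%. The comparisons with PBS share the PBS mice. In mouse 7 some of these levels rest on few UMIs. Adar had 0, Mx2 had 2, Oasl1, Irf1 and Parp9 had 3 each, Ddx58 had 4 and Ifit1 and Ifit3 had 5 each. Trim25 and Dtx3l had 7 each, Isg15 had 8 and Stat2 had 12. A lack of overlap with PBS is uncertain for these genes. For the mean of both AAV groups minus PBS the smallest p-values belonged to Stat2 at 0.87 (SE 0.22), Mx2 at 0.80 (SE 0.29) and Adar at 0.90 (SE 0.35) among higher members. Among lower members they belonged to Bst2 at -0.78 (SE 0.23), Isg15 at -0.66 (SE 0.30) and Ifi27l2a at -0.97 (SE 0.54). The edgeR adjusted p values of these 6 ran from 0.317 to 0.511.

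The size of change these livers could show was computed from each gene's standard error. At an unadjusted p of 0.05 with a power of 80%, the detectable fold had a median of 2.17 over the 37 members for AAVrh.10Null minus PBS. It ran from 1.57 for Ifih1 to 5.69 for Mx1. For AAVrh.10mCherry minus PBS the median was 2.15, and 15 of 37 members could have shown a change under 2-fold in each comparison with PBS. A call over all genes needs more: the same fold for a gene that ranks first among those tested had a median of 8.78 for AAVrh.10Null minus PBS and was 4.32 for Stat2. Counting error alone would have given a median of 1.34. The 95% interval lay within 2-fold in both directions for 15 members in AAVrh.10Null minus PBS and for 9 in AAVrh.10mCherry minus PBS. For the other members the interval reached past 2-fold on at least 1 side, so a missing call does not show that their levels were equal.

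**Figure D3:**
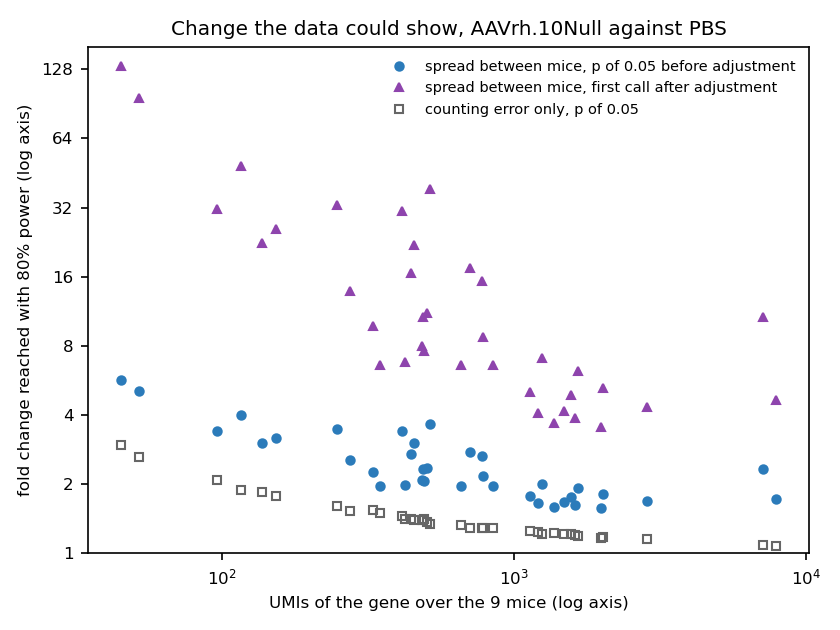
Fold change detectable with 80% power for AAVrh.10Null minus PBS, against the UMIs of each member over the 9 livers, both on log axes. Circles use the spread between mice (median 2.17), triangles the spread and the p needed for a first call after adjustment (median 8.78), and open squares counting error alone (median 1.34).

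The rest of the pathway was read from a list of 64 further genes, of which 53 were tested and none was called in the 4 contrasts. At an unadjusted p under 0.05 in edgeR, 3 were higher and 6 lower for AAVrh.10Null minus PBS, 2 higher and 0 lower for AAVrh.10mCherry minus PBS, 2 higher and 1 lower between the AAV groups, and 3 higher and 3 lower for the mean of both. Of all genes, 9.47% and 2.89%, 8.04% and 0.94%, 5.25% and 2.36%, and 9.28% and 1.83% passed in those contrasts, higher and lower. Among ligands, Ifnb1, Ifna1, Ifna2, Ifna4, Ifnl2 and Ifnl3 were listed in no file, and Ifng had 23 UMIs. The receptor chain Ifnar1 was at 15.6 to 26.4 and Ifnar2 at 52.7 to 104 CPM over the livers.

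For AAVrh.10Null minus PBS the smallest p-values of that list belonged to the kinase Tyk2 at 0.92 (SE 0.30), the transcription factor Irf3 at 0.62 (SE 0.22), the membrane protein Ifitm1 at -1.23 (SE 0.44) and Nlrc5, an activator of MHC class I genes, at 0.95 (SE 0.36). Their edgeR adjusted p values were 0.264, 0.286, 0.306 and 0.320. For AAVrh.10mCherry minus PBS they belonged to Pias1, Nlrc5, Tbk1 and Irf5, with edgeR adjusted p values of 0.542 to 0.588. Between the AAV groups they belonged to Tyk2 at -0.69 (SE 0.27), Pnpt1, Nmi and Tbk1, and for the mean of both to Nlrc5, Pias1, Lgals9 and Ifitm2. Of the 27 tested genes that interferon induces, such as B2m, Psmb8 and the Ifitm genes, 5 were higher and 22 lower by sign in AAVrh.10Null than in PBS, with a median of -0.37 beside 0.02 for all genes. In AAVrh.10mCherry 9 were higher and 18 lower than in PBS, with a median of -0.12 beside 0.16. How all genes split by sign is not given here, so only the medians have a background beside them. These counts and medians were not recomputed with mice left out or under TMM, so how far they rest on 1 PBS liver was not tested. Cxcl9, which interferon gamma induces, was at 6.51, 29.1 and 10.3 CPM with PBS, at 8.47, 6.38 and 7.28 with AAVrh.10Null and at 16.5, 6.53 and 13.7 with AAVrh.10mCherry, highest in mouse 4.

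Cell classes were then set by markers, none of them a member. A barcode was macrophage or endothelial marker-positive with UMIs of at least 3 different markers of that list and more than of any other list outside hepatocytes. A hepatocyte barcode had at least 3 hepatocyte markers and at most 1 gene of the other lists. This gave 42100 hepatocyte, 693 endothelial and 222 macrophage barcodes, with 500 to 6990, 20 to 157 and 2 to 50 per mouse. Just outside the limit, barcodes with 2 markers numbered 0 to 36 per mouse for macrophages and 6 to 61 for endothelial cells. Median UMIs per barcode were of the same order in the 3 classes of each mouse, for example 1980, 2111 and 2043.5 in mouse 1 for hepatocytes, macrophages and endothelial cells. Doublets were not removed, and Alb was at 55.2% of its hepatocyte level in macrophage barcodes and 63.5% in endothelial ones. Differences between classes are therefore differences between mixtures, and the part of hepatocyte RNA in them was not tested.

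In macrophage barcodes 24 of the 37 tested members were higher than in hepatocytes of the same mouse and none was lower, by edgeR with the mouse as a block over 8 mice. Mouse 7 had too few macrophage barcodes to enter. Of 12771 genes tested 14% were higher and 3.76% lower, and the members' median difference was 1.91 on the log2 scale beside 0.21 for all genes. The most different were Ifi27l2a at 6.95 (SE 0.23), Ifit2 at 5.27 (SE 0.37), Oasl2 at 5.15 (SE 0.50), Oas1a at 5.11 (SE 0.55), Samhd1 at 4.53 (SE 0.26), Mx1 at 4.23 (SE 0.71), Ifit3 at 3.26 (SE 0.36) and Irf7 at 3.21 (SE 0.29). TMM scaling lowered the median of all genes from 0.21 to -0.78 and left 15 of the 24 called higher, with Bst2 and Ifi27 called lower. These 8 genes stayed called under TMM, with Ifi27l2a at 5.94 and Irf7 at 2.25. For the contrasts with macrophages, the share of all genes called under TMM is not given here, so these counts have no background beside them.

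Ifi27l2a stood at 0 to 948 CPM in the macrophage barcodes of the 8 mice, with a median of 696, against 1.71 to 9.33 in hepatocytes of all 9. Its 163 macrophage UMIs came from 7 of the 8 mice, so the macrophage values lay above the hepatocyte ones in every mouse but 1. Samhd1 stood at 82.5 to 366 CPM in macrophages, median 233, against 5.40 to 18.6 in hepatocytes, and every macrophage value was above every hepatocyte value. Irf7 stood at 0 to 276 in macrophages, median 122, against 5.36 to 25.5. The Oas1a and Mx1 differences rest on 8 and 4 macrophage UMIs, in 6 and 3 of 8 mice. Mx1 was 3.28 with an edgeR adjusted p of 0.0966 without mouse 8.

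Not called between macrophages and hepatocytes were 13 members. Bst2 was at 190 CPM in the pooled macrophage barcodes of the 8 mice and at 146 in those of hepatocytes, a log2 difference of 0.23 (SE 0.25), and Stat2 at 78.1 and 54.1, a difference of 0.61 (SE 0.35). Their sign was negative under TMM, at -0.75 and -0.40. Ifi27 differed by 0.24 (SE 0.25), and -0.73 under TMM. The other genes not called were Ifih1, Ddx58, Irf9, Parp9, Ifit1, Ifi44, Adar, Herc6, Cmpk2 and Usp18. Oas2 had 6 hepatocyte, 7 macrophage and 2 endothelial UMIs, and Oas3 had 3, 5 and 0.

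In endothelial barcodes 23 of 37 members were higher than in hepatocytes and none was lower over 9 mice, where 24.8% and 4.96% of 12874 genes were. The median was 1.22 beside 0.37 for all genes. The largest differences were Oasl2 at 4.93 (SE 0.39), Ifit2 at 4.2 (SE 0.35), Ifi44 at 3.96 (SE 0.38), Oas1a at 2.52 (SE 0.72), Rsad2 at 2.51 (SE 0.27), Xaf1 at 2.44 (SE 0.31), Rtp4 at 2.33 (SE 0.26) and Samhd1 at 2.32 (SE 0.30). All 4 endothelial UMIs of Oas1a were in mouse 6, and without that mouse its value was -4.08. TMM moved the median of all genes to -0.25 and left 13 of the 23 called higher, with Stat2 at -0.66 and Oasl1 at -2.42 called lower, and DESeq2 called 15. Of all 12874 genes, TMM called 3973 and DESeq2 3033 in either direction. Ifi44 stood at 0 to 109 CPM in endothelial barcodes, median 15.4, against 0 to 3.11 in hepatocytes. In macrophages Ifi44 had 1 UMI.

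Bst2 stood at 139 to 1238 CPM in endothelial barcodes, median 250, against 84.7 to 272 in hepatocytes, and was 1.02 higher (SE 0.14). Under TMM that difference was 0.35 and was not called. The 1238 CPM was of mouse 7, whose 20 endothelial barcodes held 7267 UMIs. Between macrophages and endothelial cells 23 members could be tested, and Ifi27l2a at 4.87 (SE 0.51), Irf7 at 2.47 (SE 0.51) and Samhd1 at 2.09 (SE 0.35) were higher in macrophages and none was lower, beside 7.56% and 8.9% of 5212 genes. TMM kept these 3 calls and added Bst2 as lower, at -0.79. The share of all genes that TMM called in this contrast is not given here.

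**Figure D4:**
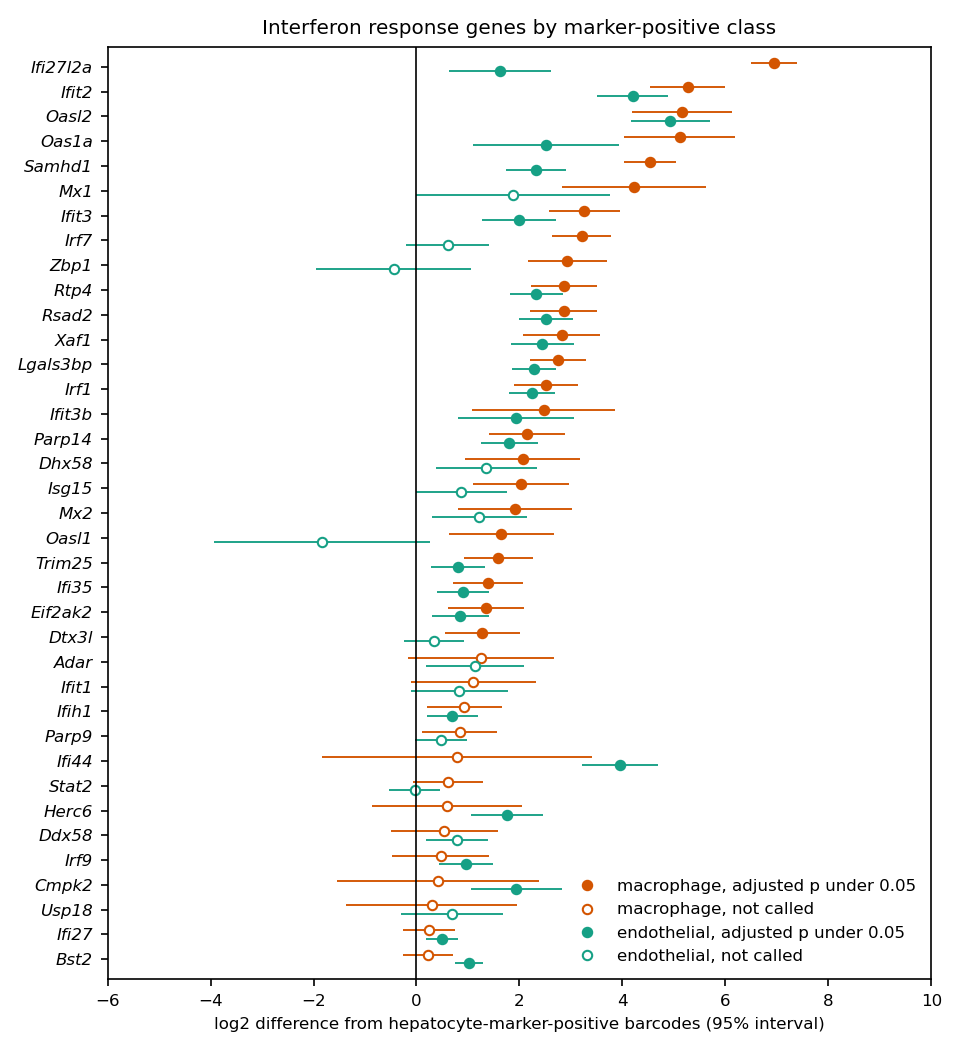
Log2 difference of each member between macrophage or endothelial marker-positive barcodes and hepatocytes of the same mice, scaled to total UMIs, with 95% intervals. Ifi27l2a, Samhd1 and Irf7 lie higher in the macrophage comparison (6.95, 4.53 and 3.21) than in the endothelial one; filled points are called, open points are not.

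Within each class the groups were compared again, and no member was called. In hepatocytes 37 members were tested, with 0.00791% of all genes called for AAVrh.10Null minus PBS and 0% for AAVrh.10mCherry minus PBS. Stat2 stood at 27.3 to 37.7 CPM in PBS hepatocytes, at 66.3 to 80.5 with AAVrh.10Null and at 41.0 to 66.6 with AAVrh.10mCherry, without overlap with PBS. The log2 difference was 1.15 (SE 0.25) and 0.86 (SE 0.25), with edgeR adjusted p values of 0.114 and 0.441. DESeq2 and edgeR without a low-count filter called the first, with adjusted p values of 0.0343 and 0.00800, and over all alternatives the adjusted p was 0.00800 to 0.373. Mx2 stood at 3.73 to 4.36, 7.69 to 9.41 and 4.93 to 8.13 in the 3 groups, and its difference for AAVrh.10Null was 1.04 (SE 0.31). Isg15 differed by -0.98 (SE 0.32), Adar by 1.0 (SE 0.37) and Oasl1 by -0.75 (SE 0.38) for AAVrh.10Null minus PBS. With AAVrh.10mCherry the hepatocyte differences from PBS were 1.05 (SE 0.37) for Adar, 0.65 (SE 0.26) for Ddx58, -0.82 (SE 0.48) for Rsad2 and -1.01 (SE 0.75) for Oas1a. The Rsad2 value was -0.05 without mouse 4.

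In endothelial barcodes the sign of Stat2 was the other way. It stood at 59.1 to 138 CPM with PBS, at 34.7 to 76.8 with AAVrh.10Null and at 27.8 to 76.7 with AAVrh.10mCherry, from 42 UMIs in all, and the groups overlapped. The highest PBS value was of mouse 7, whose 20 endothelial barcodes held 7267 UMIs, so it rests on very few Stat2 UMIs. The log2 difference of Stat2 from PBS was -0.22 (SE 0.70) for AAVrh.10Null and -0.47 (SE 0.63) for AAVrh.10mCherry, the second running from -0.81 to -0.19 with 1 mouse left out. The difference between hepatocytes and endothelial barcodes in this contrast was not tested. For AAVrh.10Null minus PBS, endothelial Lgals3bp was at 1.07 (SE 0.62), Trim25 at 0.96 (SE 0.72), Parp9 at -0.67 (SE 0.87) and Irf1 at -0.43 (SE 0.69). Parp9 was at -5.22 without mouse 2. For AAVrh.10mCherry minus PBS, endothelial Parp14 was at 1.25 (SE 0.72), Irf1 at 0.80 (SE 0.54) and Ifi27 at -0.21 (SE 0.49). In macrophages, AAVrh.10Null minus PBS was 0.69 (SE 0.59) for Ifi27, 0.65 (SE 0.60) for Ifi27l2a, 0.34 (SE 0.74) for Irf7, -1.04 (SE 0.87) for Irf1 and -0.18 (SE 0.69) for Lgals3bp. AAVrh.10mCherry minus PBS was 0.73 (SE 0.64) for Irf1, 0.65 (SE 0.60) for Samhd1, 0.34 (SE 0.74) for Irf7, -0.51 (SE 0.73) for Lgals3bp and -0.43 (SE 0.65) for Ifi27l2a. Samhd1 was at 0.07 without mouse 1 and 1.74 without mouse 4. None of these was called, and the intervals are wide.

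Bst2 differed from PBS in hepatocytes by -0.72 (SE 0.26) with AAVrh.10Null and -0.77 (SE 0.26) with AAVrh.10mCherry. In endothelial barcodes, where 18 members could be tested, the values were -0.92 (SE 0.49) and -0.50 (SE 0.45). In macrophage barcodes, where 7 could be tested and the PBS group held 2 mice, they were -1.43 (SE 0.64) and -1.21 (SE 0.62). The Bst2 difference was thus negative in all 3 classes, with none called. The classes came from the same livers and are not independent. With 1 mouse left out, the endothelial Bst2 value with AAVrh.10mCherry ran from -1.01 to -0.037. Xaf1, which promotes cell death, had 3 UMIs in PBS endothelial barcodes, 11 with AAVrh.10Null and 20 with AAVrh.10mCherry, or 0 to 36.2, 34.7 to 65.3 and 34.7 to 66.7 CPM by mouse. Its log2 differences were 2.08 (SE 1.03) and 1.89 (SE 0.98), with edgeR adjusted p values of 1 and 0.722. Without mouse 1 they were 0.81 and 0.62, and without mouse 4 they were 5.45 and 5.27. Irf1 in macrophages was at 0 to 70.1 CPM with AAVrh.10Null, 68.6 to 124 with PBS and 99.8 to 247 with AAVrh.10mCherry. The shares of all genes called were 0% and 0.0242% in endothelial and 0.249% and 0.0622% in macrophage barcodes.

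The median detectable fold at an unadjusted p of 0.05 was 2.21 and 2.20 in hepatocytes for the 2 AAV groups, 4.16 and 3.67 over the endothelial members tested and 3.70 and 3.66 over the 7 macrophage members. These folds include the spread between mice, and the part of counting error in them was not tested.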

How the data were processed

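Single-cell transcripts of 9 livers, 1 per mouse, were used, grouped by the treatment in the labels. The members and gene lists were chosen with earlier results of these data known. Drop-seq libraries were sequenced on an Illumina HiSeq, per the labels. The submitters' processing notes name the mm10 build and Seurat, without a version, and the deposited readme names bcl2fastq 2.19. The strand of counting, annotation, aligner and counter are not given in the sources used here. As deposited, each file is a table of raw UMI counts, whole numbers by gene and barcode. Here barcodes with at least 200 genes were kept and counts were summed per mouse, so the mouse is the replicate. A gene absent from a file was set to 0.

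Changes were tested with edgeR 4.0.16 in R 4.3.3 (quasi-likelihood, offset of total UMIs, genes with at least 30 UMIs over the mice, Benjamini-Hochberg adjustment over all genes tested, calls at an adjusted p under 0.05). All 3 groups entered 1 fit, and the class contrasts had the mouse as a block with at least 10 barcodes per class and mouse. The script was tested on simulated data. Standard errors came from the fitted weights, and intervals of pooled UMIs are exact 95% Poisson intervals that cover counting error only. A count of 0 was set against a floor of 3 UMIs. Given by mouse were the 12 members with the highest mean level, and given with their change, per contrast, the 3 members per direction with the smallest p. In class contrasts the up to 8 called members with the largest fold were named, and of the other pathway list up to 4 with the smallest p. Members outside these were given by range, and those named beyond the rule, such as the genes without overlap, were chosen after their values were seen. Alternatives were TMM and DESeq2 size factors, DESeq2 1.42.0, other filters on genes, barcodes and markers, and leaving out mice. Gene positions and overlaps are from GENCODE M21 (GRCm38). The values of 1 gene of the other pathway list are not reported here.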

Additional observations from a re-analysis of the deposited data

How the results depend on the processing

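No paired analysis was possible because each mouse number occurs in 1 group only. Leaving out 1 mouse at a time kept the count of called members at 0 to 0 in all 10 treatment contrasts. The count was 19 to 24 for macrophage minus hepatocyte, 19 to 24 for endothelial minus hepatocyte and 3 to 4 for macrophage minus endothelial. Shares of all genes called with a mouse left out are not given here, so these class counts have no background beside them. Without mice 2 and 8 AAVrh.10Null was mouse 5 alone, assumed to vary like the other groups, as was the lone PBS mouse in macrophages when mouse 1 or 4 was left out. The count for AAVrh.10Null minus PBS was 1 (Stat2) with DESeq2, which called 63 of 13400 genes, and 1 (Stat2) without a low-count filter, where 385 of 26282 genes were called. In hepatocytes it was also 1 (Stat2) with each, where 70 of 12637 and 477 of 25386 genes were called. Over all genes, AAVrh.10Null minus PBS had 1 call with total UMIs as the offset. AAVrh.10mCherry minus PBS had 0, against 2 with DESeq2 and 139 without the filter. AAVrh.10mCherry minus AAVrh.10Null had 1, against 3 with TMM or DESeq2 size factors, 0 with DESeq2 and 179 without the filter. The mean of both had 0, against 7 and 246. For endothelial minus hepatocyte it was 15 with TMM, which called 3973 of 12874 genes, and 15 with DESeq2, which called 3033. The cause was not tested. Among single genes and medians, 991 values with 1 mouse left out were counted as unchanged and 42 as changed in sign. Under the other settings 778 were counted as unchanged and 37 as changed in sign. A gene counted as unchanged kept its direction and side of the threshold. A median counted as unchanged if it moved by less than 0.315, whatever its sign. The counted sign changes are therefore of genes only.

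None of the gene values that changed sign was called. For AAVrh.10Null minus PBS, TMM gave -0.0097 for Eif2ak2 and -0.036 for Lgals3bp, and DESeq2 size factors -0.0084 for Lgals3bp. All deposited barcodes gave 0.085, 0.062, 0.057 and 0.065 for Ifih1, Parp9, Dtx3l and Irf9. Barcodes with at least 500 genes gave -0.021 for Ifi27, 0.23 for Ifih1, 0.17 for Parp9, 0.12 for Dtx3l and -0.019 for Lgals3bp, and a limit of 20% mitochondrial UMIs gave 0.024 for Ifih1 and 0.094 for Parp9. Without mice 2 and 8, Parp9, Dtx3l, Irf9 and Lgals3bp were 0.044, 0.10, 0.090 and -0.26. For AAVrh.10mCherry minus PBS, Ifih1 was -0.073 with TMM, -0.062 with DESeq2 size factors and -0.068 with DESeq2. Without mice 2, 7 and 8 Ifih1 was -0.0016 and Ifi35 -0.0017.

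For AAVrh.10mCherry minus AAVrh.10Null, Ifih1 and Ifi35 were -0.012 and -0.076 with TMM, -0.023 and -0.087 with DESeq2 size factors and -0.024 and -0.087 with DESeq2. With at least 500 genes per barcode Bst2, Ifih1, Trim25, Ifi35 and Ddx58 were 0.23, -0.12, -0.28, -0.12 and -0.091. Bst2 was 0.044 with the mitochondrial limit and 0.20 without mice 2 and 8. Lgals3bp in macrophages, AAVrh.10Null minus PBS, was 0.19 with at least 2 markers.

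With 1 mouse left out, ranges that crossed 0 for AAVrh.10Null minus PBS were -0.17 to 0.32 for Ifi27, -0.14 to 0.15 for Ifih1, -0.18 to 0.20 for Parp9, -0.081 to 0.23 for Eif2ak2, -0.22 to 0.37 for Lgals3bp, -0.013 to 0.27 for Ifi35, -0.28 to 0.19 for Dtx3l and -0.15 to 0.065 for Irf9. For AAVrh.10mCherry minus PBS they were -0.075 to 0.36 for Ifi35, -1.78 to 0.42 for Ifi27l2a and -0.0016 to 0.24 for Ifih1. Between the AAV groups they were -0.21 to 0.22 for Ifi35 and -0.17 to 0.17 for Bst2, and for the mean of both -1.64 to 0.55 for Ifi27l2a. In endothelial barcodes Ifi27 ran from -0.45 to 0.0075 with AAVrh.10mCherry. In macrophages Ifi27l2a ran from -0.0036 to 1.90 and -1.86 to 0.84, Irf7 from -0.14 to 0.63 and -1.29 to 0.82, and Lgals3bp from -0.65 to 0.60 and -0.98 to 0.27, for AAVrh.10Null and AAVrh.10mCherry. Oas1a, endothelial minus hepatocyte, ran from -4.08 (without mouse 6) to 2.86. The classes differ in depth, with 295202 macrophage and 815561 endothelial UMIs beside 49181957 in hepatocytes.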

Other observations

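T/NK and stellate marker-positive barcodes, 167 and 181 over the 9 livers, were not tested and are given as pooled CPM. For single members these come with exact 95% Poisson intervals, which cover counting error only. The summed level of the 39 genes was 1798 CPM in T/NK and 1790 in stellate barcodes, beside 770 in hepatocyte, 1658 in endothelial and 2984 in macrophage barcodes. Ifi27l2a was at 215 (159 to 283) in T/NK and 152 (107 to 209) in stellate barcodes, against 3.88 in hepatocytes. Stat2 was at 17.2 (4.68 to 43.9) in T/NK barcodes, from 4 UMIs, and at 103 (66.4 to 151) in stellate barcodes. Irf1, Dtx3l and Ddx58 were at 129 (86.9 to 184), 103 (66.0 to 153) and 94.4 (59.2 to 143) in T/NK barcodes. Lgals3bp was at 164 (117 to 224) in stellate barcodes. Oasl2 was at 41.0 (19.7 to 75.5) in stellate barcodes and had 0 UMIs in T/NK barcodes, with an upper limit of 15.8 CPM. Bst2 was at 150 (105 to 209) and 156 (110 to 214), close to its 146 in hepatocytes. Alb stood at 59.8% and 77.7% of its hepatocyte level in these barcodes.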
